A study of Mus musculus with 15 samples.

Results

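The 10 major urinary protein genes Mup1, Mup3, Mup7, Mup11, Mup12, Mup15, Mup17, Mup19, Mup20 and Mup21 were followed in mouse liver. They were taken by their symbols from the mRNA table, in which 21949 genes were listed in 10 libraries, and the FPKM values of their 19 transcripts were summed by gene identifier. FPKM, in which fragments are divided by transcript length and by the mapped fragments of the library, already allows for length. How reads shared by near-identical copies were divided is not given, so the levels of single Mup genes beside each other are uncertain. The same values were also added up over the 10 genes, and this sum is given first, because near-identical paralogs share reads.

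The livers came from wild-type C57BL/6 males killed at 40 weeks of age, and each of 5 groups was represented by 2 libraries. Nor males received PBS at 2 weeks and ate normal chow. NCD males received the liver carcinogen DEN (diethylnitrosamine) at the same age and also ate chow. Both were described as offspring of F0 females, whose own diet the labels do not tie to either group. H1D, H2D and H3D males received DEN and were kept on a high-fat diet (60% of kcal from fat). Their mothers belonged to generation F0, F1 and F2, respectively, of a lineage whose females were given high-fat food between 1 and 3 months of age. The comparison with NCD therefore joins a male's own diet to the diet of its ancestors, and a generation cannot be told apart from the cohort that carried it. RNA of 4 to 8 animals per group had been combined into the 2 pools, so that SDs and p-values describe pools and not animals. The labels do not say whether tumour nodules were part of the tissue.

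Major urinary proteins are small secreted lipocalins, barrel-shaped proteins with a pocket for small hydrophobic ligands. In male mice the liver makes them in very large amounts, they pass into the urine, and there they release bound volatile pheromones slowly and act as scent signals themselves. Their genes form a tandem cluster in which neighbouring copies are nearly identical. Transcription in liver is known to depend on pulses of growth hormone acting through STAT5, with further input from androgen, thyroid hormone and glucocorticoid, and the family is a standard example of male-biased liver expression.

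In the RefSeq annotation of GRCm38.p6, matched by symbol, the 10 genes lie on chromosome 4 among 22 genes named Mup, between 59956804 and 62150841. Mup7, Mup1, Mup11, Mup12, Mup15, Mup17 and Mup19, in that order, occupy 60066469 to 61782355. Mup20, Mup3 and Mup21 form the distal end, from 62011337 to 62150841. RefSeq promoter windows, 250 bases before and 50 after the annotated start, were found for 7 of the 10 (Mup3, Mup7, Mup11, Mup15, Mup17, Mup19 and Mup21). The windows of 4 genes are shown because they display the forms the promoter takes in the cluster, Mup11 and Mup17 from the first 7 genes and Mup3 and Mup21 from the distal end. All 4 are on the minus strand and are written 5′ to 3′, with every ATCAAT and the TATATAA in capitals. They span chr4:60662346-60662645 (Mup11), chr4:61595783-61596082 (Mup17), chr4:62087268-62087567 (Mup3) and chr4:62150792-62151091 (Mup21).
Mup11: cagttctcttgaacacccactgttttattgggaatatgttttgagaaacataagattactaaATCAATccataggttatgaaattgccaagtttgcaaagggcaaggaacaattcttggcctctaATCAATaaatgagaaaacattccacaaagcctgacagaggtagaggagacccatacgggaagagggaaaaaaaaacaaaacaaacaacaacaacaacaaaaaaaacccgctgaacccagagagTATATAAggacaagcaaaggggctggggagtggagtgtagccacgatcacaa
Mup17: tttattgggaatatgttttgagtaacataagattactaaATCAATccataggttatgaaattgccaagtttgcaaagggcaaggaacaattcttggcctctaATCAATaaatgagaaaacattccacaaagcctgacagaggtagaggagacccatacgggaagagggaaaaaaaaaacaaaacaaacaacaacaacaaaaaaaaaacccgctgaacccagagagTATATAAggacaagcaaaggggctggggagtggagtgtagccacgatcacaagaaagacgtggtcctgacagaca
Mup3: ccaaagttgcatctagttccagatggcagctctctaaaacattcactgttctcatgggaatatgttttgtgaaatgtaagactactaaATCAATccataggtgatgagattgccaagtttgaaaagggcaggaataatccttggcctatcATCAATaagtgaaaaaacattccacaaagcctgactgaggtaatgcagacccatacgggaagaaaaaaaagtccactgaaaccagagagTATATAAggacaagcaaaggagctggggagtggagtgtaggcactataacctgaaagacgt
Mup21: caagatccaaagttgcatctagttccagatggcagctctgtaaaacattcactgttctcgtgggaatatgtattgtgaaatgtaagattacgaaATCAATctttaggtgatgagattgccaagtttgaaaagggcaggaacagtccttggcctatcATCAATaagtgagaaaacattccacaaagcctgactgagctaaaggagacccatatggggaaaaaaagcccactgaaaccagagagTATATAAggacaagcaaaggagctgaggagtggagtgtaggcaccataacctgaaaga

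Within the windows, ungapped aligned bases were 97.0% to 100% identical among Mup7, Mup11, Mup15, Mup17 and Mup19, and 93.9% identical between Mup3 and Mup21. Between the first 5 and those 2, identity was 84.0% to 88.6%. Each motif was searched on both strands. ATCAAT, the core of the site of the liver factor HNF6 (Onecut1), occurred 2 times in each of the 7 windows, against at least once in 7.54% of 32851 RefSeq mouse promoters. TATATAA, a core promoter element, was present in 6 of 7 (3.24% of all promoters), and Mup7 was the exception. The Mup7 window lies further upstream in the shared sequence, with its ATCAAT pair at -82 and -19 from the annotated start against -188 and -125 in Mup11, so that the stretch holding TATATAA in the other copies was not covered. TTCNNNGAA, the STAT5 motif, was in 0 of 7 (8.30% of all). AGAACA, a half-site of the glucocorticoid receptor, was in 2 of 7 (18.97% of all), those of Mup3 and Mup21.

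The deposited mRNA values summed to between 568823 FPKM (an H3D pool) and 784456 FPKM (a Nor pool) per library, and 10263 to 11169 genes reached 1 FPKM. Mitochondrially encoded genes made up 8.27% to 16.2% of that sum. Read numbers are not given, so no counting intervals were set. The steps between low values put the mapped depth of the libraries at 0.981 to 1.35 times that of Nor pool 1. All 10 hepatocyte markers reached 1 FPKM, and they summed to 48681 to 89101 FPKM.

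In Nor livers the 10 Mup genes together reached 65641 FPKM in pool 1 and 30516 FPKM in pool 2. NCD livers held 31238 and 33793 FPKM. The sum was 7898 and 8756 FPKM in the H1D pools. H2D reached 15298 and 13442 FPKM, and H3D 3729.5 and 5127 FPKM. All 6 high-fat pools lay below all 4 chow-fed pools, and the 3 high-fat groups did not overlap each other.

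**Figure D1:**
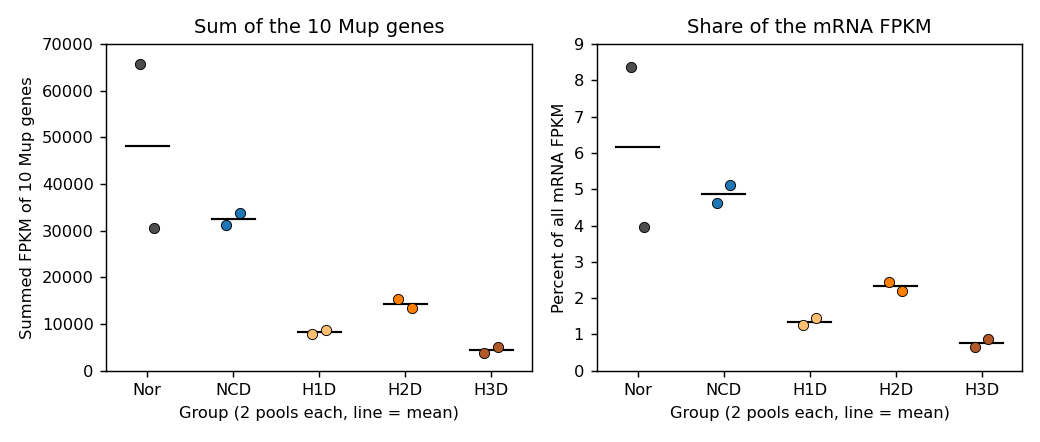
Sum of the 10 Mup genes in each pool, in FPKM (left) and as a percent of all mRNA FPKM of the library (right), by group; points are the 2 pools and lines their means. The H3D pools are lowest at 3729.5 and 5127 FPKM, H1D and H2D lie between them and NCD, and the Nor pools are far apart.

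As group means (± SD, n = 2 pools), the sum was 48078 ± 24837 FPKM in Nor, 32515 ± 1807 in NCD, 8327 ± 607 in H1D, 14369.9 ± 1313 in H2D and 4428 ± 988 in H3D. Against NCD it was 3.90-fold lower in H1D, 2.26-fold lower in H2D and 7.34-fold lower in H3D. These genes supplied 4.62% and 5.11% of all mRNA FPKM in NCD and 0.656% and 0.880% in H3D. In bulk tissue, fewer hepatocytes and less Mup RNA per hepatocyte cannot be told apart from the Mup values alone. The single Mup genes were 3.38-fold (Mup20) to 558-fold (Mup12) lower in H3D than in NCD. Of 10 hepatocyte markers, the one lowered most from NCD to H3D was Ttr, by 2.39-fold in mean FPKM. Hnf4a was at 145.5 ± 9.12 FPKM in NCD and 136 ± 13.7 in H3D. The part of hepatocyte number in the Mup values was not tested. The sum was chosen with these values known and has no p-value.

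The sum of the first 7 genes and the sum of the distal 3 moved by different amounts. This division follows chromosomal order but was made after the values were seen, and the difference between the sets was not tested. Together the first 7 gave 46082 and 14786 FPKM in Nor, 15104 and 15299.5 in NCD, 1906 and 2227 for H1D, 6342 and 5596 for H2D, and 186 and 186 for H3D. Mup3, Mup20 and Mup21 together gave 19558 and 15729.7 FPKM in Nor, 16134 and 18493 in NCD, 5992 and 6529 for H1D, 8956 and 7846 for H2D, and 3543 and 4941 for H3D. From NCD to H3D the first sum was 81.6-fold lower and the second 4.08-fold lower. The second sum was nearly all Mup20 and Mup3, and Mup21 differed from them. It was 23.7-fold lower in H3D and 5.37-fold lower in H2D, where the first 7 were 2.00-fold (Mup11) to 5.35-fold (Mup12) lower. Mup10 and Mup18, which are not members but lie among the first 7, were 13.0-fold and 17.8-fold lower in H3D.

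**Figure D2:**
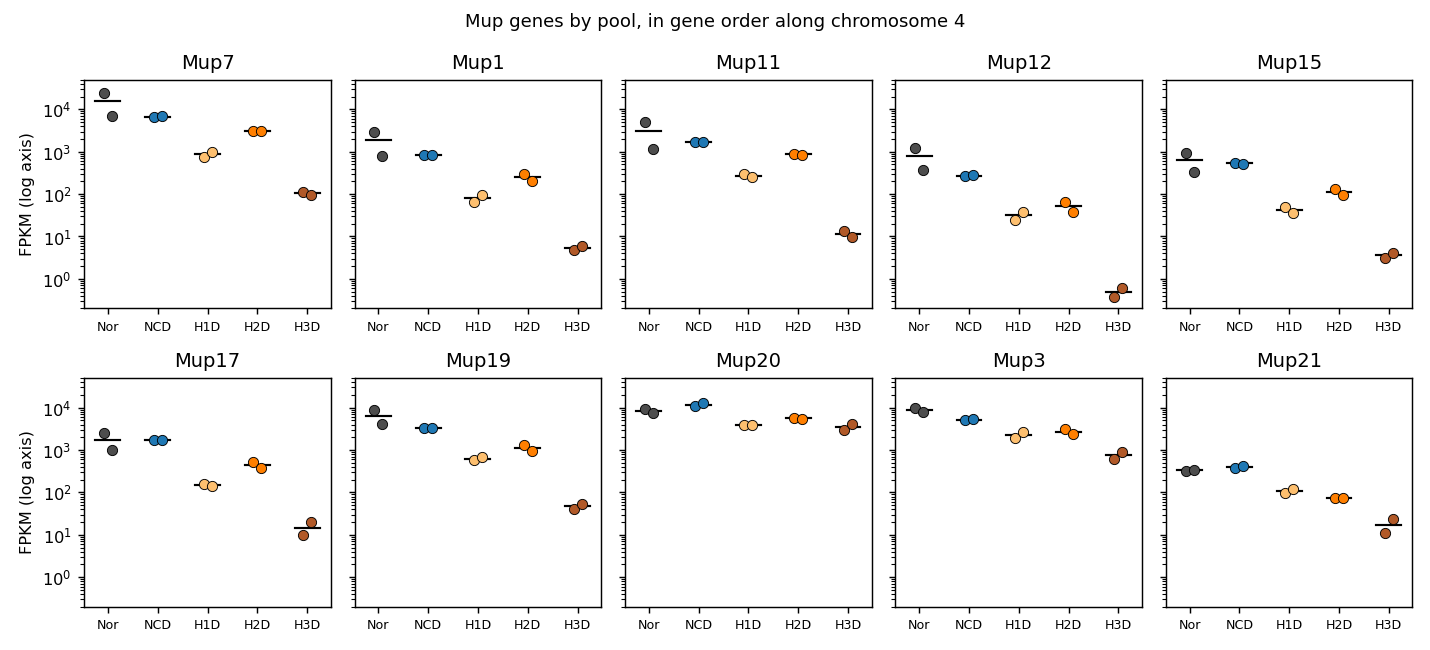
FPKM of each Mup gene in each pool on a log axis, by group, in chromosomal order from Mup7 to Mup21; points are pools and lines are group means. In every panel but that of Mup20 both H3D pools are the lowest of the 10.

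Mup7 (ENSMUSG00000073842) was the most abundant of the first 7 genes in Nor, at 24854 and 7091 FPKM. It gave 6651 and 6854 FPKM in NCD, 737 and 1006 for H1D, 3104 and 3109 for H2D, and 113 and 93.8 for H3D. The order of its groups was Nor, NCD, H2D, H1D, H3D, with no overlap at any step.

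Mup19 (ENSMUSG00000078673), the last of the 7, gave 8708 and 4070.3 FPKM in Nor and 3340.2 and 3362 in NCD. It gave 580.4 and 668 FPKM for H1D, 1352 and 928 for H2D, and 41.5 and 52.2 for H3D. Its groups stood in the same order as those of Mup7 and did not overlap at any step.

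Mup11 (ENSMUSG00000073834), whose promoter is printed above, gave 4949 and 1140.1 FPKM in Nor and 1712 and 1738 in NCD. In the high-fat groups it gave 291 and 246 FPKM (H1D), 881 and 843 (H2D), and 13.7 and 9.60 (H3D). Nor overlapped NCD, and the other steps were clear. Mup17 (ENSMUSG00000096688) was at 2507 and 981 FPKM in Nor, 1750.3 and 1728 in NCD, 159.9 and 138 for H1D, 509 and 381 for H2D, and 9.79 and 19.7 for H3D. Here too, Nor overlapped NCD alone.

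Mup1 (ENSMUSG00000078683), whose secreted product has been linked in mice to glucose and lipid metabolism, gave 2886 and 796 FPKM in Nor and 834 and 822 in NCD. It fell to 65.5 and 93.0 FPKM in H1D, was at 296 and 204 in H2D and fell to 4.90 and 5.95 in H3D. Mup15 (ENSMUSG00000096674) gave 952 and 338 FPKM in Nor, 554 and 510.3 in NCD, 48.8 and 36.5 for H1D, 135 and 93.3 for H2D, and 3.12 and 4.15 for H3D. For both, one Nor pool was above and one below the NCD pools, and the high-fat groups were separate.

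Mup12 (ENSMUSG00000094793) was the scarcest of the 7 in NCD, with 262 and 285 FPKM, after 1227 and 369 in Nor. Its values were 24.0 and 38.6 FPKM for H1D, 65.0 and 37.4 for H2D, and 0.372 and 0.610 for H3D. Its H1D and H2D pools overlapped. It was the one member below 1 FPKM in a library, and all 10 members passed the filter of 1 FPKM in 2 libraries.

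Mup20 (ENSMUSG00000078672) encodes darcin, the male pheromone protein that attracts female mice. It gave 9288 and 7609.6 FPKM in Nor, 10683 and 12777 in NCD, 3943 and 3806 for H1D, 5752 and 5417 for H2D, and 2901 and 4037 for H3D. NCD was its highest group. Its H1D and H3D pools overlapped, which was true of no other member.

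Mup3 (ENSMUSG00000066154) gave 9943 and 7782 FPKM in Nor, 5065 and 5296 in NCD, 1951 and 2605 for H1D, 3129 and 2355 for H2D, and 631 and 881 for H3D. Its H1D and H2D pools overlapped. Mup21 (ENSMUSG00000066153) gave 328 and 339 FPKM in Nor, 386 and 419 in NCD, 97.5 and 119 for H1D, 75.5 and 74.4 for H2D, and 10.8 and 23.2 for H3D. It was the one member with less in H2D than in H1D, and none of its groups overlapped.

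By group means, 8 members ran Nor, NCD, H2D, H1D, H3D from high to low. Mup20 and Mup21 were highest in NCD. Of the 19 transcripts of these genes 18 reached 1 FPKM in a library, and all 18 were lower in the 6 high-fat pools than in both NCD pools. At the gene level 16.9% of all genes tested met that rule, and the share of all transcripts was not computed. In 17 of the 18 both H3D pools were also below the other 8 pools, the exception being the transcript of Mup20. No share over all genes or transcripts was computed for this rule. Transcripts of the same or near-identical genes share reads, so they are not separate evidence.

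The gene-level test was limma on log2(FPKM + 0.5) over the 11557 genes that reached 1 FPKM in 2 libraries, with 1 estimate of spread for all 5 groups. A gene was called at a Benjamini-Hochberg adjusted p below 0.05 over all 11557, and log2 changes below are on this scale with the standard error. For genes near 0 this scale understates a change.

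NCD against Nor addresses DEN in chow-fed males. Of the 10 members 0 were called lower and 0 higher by limma, with 6% and 7.93% of all genes tested called in those directions. At an unadjusted p under 0.05 there were 4, namely Mup3, Mup12, Mup19 and Mup20. The share of all genes at that threshold was not computed, here or in the comparisons below. Mup3 differed by -0.76 ± 0.23 (adjusted p = 0.0618) and Mup20 by 0.47 ± 0.19 (adjusted p = 0.123). The members' median was -0.61 and that of all genes -0.04. In both NCD pools 4 members were below both Nor pools (32.7% of all genes) and 2 were above them (27%).

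The sum in NCD was 67.6% of the Nor mean, but Nor pool 2 lay below both NCD pools. The Nor pools differed 2.15-fold in the sum, from 1.03-fold for Mup21 to 4.34-fold for Mup11, whereas in the other groups the sum differed 1.08- to 1.37-fold between pools and single members up to 2.15-fold (Mup21 in H3D). Without Nor pool 1 the log2 ratio of the sums was 0.09. Without Nor pool 2 it was -1.01. With every library scaled to the same FPKM sum, Mup20 alone was called, as higher.

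H1D against NCD addresses the high-fat diet with F0 mothers of the high-fat line. Of the 10 members 8 fell and 0 rose, with 0.493% of all genes tested called lower and 0.208% higher. Mup15 changed by -3.64 ± 0.43 (adjusted p = 0.0194), Mup17 by -3.54 ± 0.44 (adjusted p = 0.0233) and Mup1 by -3.40 ± 0.51 (adjusted p = 0.0362). These were the lowest 3 log2 changes of all 11557 genes.

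The smallest called change was that of Mup20, at -1.59 ± 0.19 (adjusted p = 0.0194). Mup3 (-1.20 ± 0.23, adjusted p = 0.0653) and Mup11 (-2.69 ± 0.55, adjusted p = 0.0717) were not called. All 10 were lower in both H1D pools than in both NCD pools, as were 26.9% of all genes. The median was -2.83, against 0.01 over all genes. By limma 0 members were called without NCD pool 1, NCD pool 2 or H1D pool 1, 4 without H1D pool 2 or without any 1 of the H2D or H3D pools, and 9 without either Nor pool. The sizes moved little: over these 10 fits Mup15 ran from -3.85 to -3.43 and Mup20 from -1.72 to -1.46, and all 10 members had an unadjusted p under 0.05 in each fit. With NCD pool 1 or NCD pool 2 left out, 0 of all 11557 genes were called in this comparison.

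H2D against NCD, for the next generation, gave the smallest decrease. Here 6 members fell and 0 rose, with 1.93% of all genes called lower and 2.15% higher. They were Mup21 (-2.42 ± 0.29, adjusted p = 0.00711), Mup12, Mup15, Mup17, Mup19 and Mup20 (-1.07 ± 0.19, adjusted p = 0.0239).

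The other 4 did not pass, with standard errors that rest on the spread of all 5 groups, Nor included. Mup1 differed by -1.75 ± 0.51 (adjusted p = 0.106), Mup3 by -0.93 ± 0.23 (adjusted p = 0.0687), Mup7 by -1.12 ± 0.48 (adjusted p = 0.246) and Mup11 by -1.0 ± 0.55 (adjusted p = 0.376). All 10 members were lower in both pools, as were 29.6% of all genes, with a median of -1.67 against 0.00 over all genes. No call in H2D against NCD was kept in every fit that left out 1 library. The number of all genes called also moved between those fits. Over them Mup12 ran from -2.85 to -2.07 and Mup20 from -1.19 to -0.94.

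H3D against NCD, for the generation with F2 mothers, gave the largest decrease. All 10 members fell, with 9.87% of all genes called lower and 5.04% higher. Mup12 changed by -8.12 ± 0.52 (adjusted p = 0.000162), Mup11 by -7.17 ± 0.55 (adjusted p = 0.000383) and Mup1 by -7.13 ± 0.51 (adjusted p = 0.000255). With Mup15 and Mup17 these held the lowest 5 log2 changes of all genes, and 8 members were among the lowest 20.

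As ratios of mean FPKM, Mup12 was 558-fold lower, Mup1 152-fold and Mup7 65.3-fold. Mup21 changed by -4.62 ± 0.29 (23.7-fold; adjusted p = 0.000151) and Mup3 by -2.80 ± 0.23 (6.85-fold; adjusted p = 0.000506). Mup20 changed least, by -1.77 ± 0.19 (3.38-fold; adjusted p = 0.00139). The median was -6.54, against 0.00 over all genes. Leaving out any 1 library kept all 10 calls. All 10 were lower in both H3D pools than in both NCD pools, as were 32.3% of all genes.

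**Figure D3:**
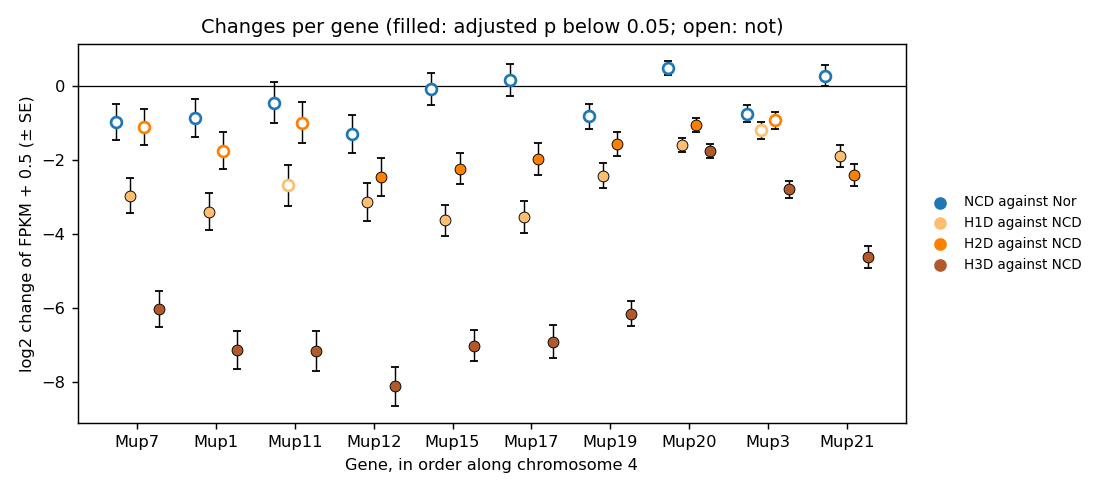
Log2 change of FPKM + 0.5 with its standard error for each Mup gene, in chromosomal order, in 4 comparisons; filled points have an adjusted p below 0.05 and open points do not. H3D against NCD runs from -8.12 for Mup12 to -1.77 for Mup20, and in NCD against Nor every point is open.

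For the mean of H1D, H2D and H3D against NCD, 10 members fell, with 7.53% of all genes called lower and 4.23% higher. All 10 were lower in the 6 high-fat pools than in both NCD pools, as were 16.9% of all genes. Their median was -3.50, against 0.00 over all genes. The changes ran from -4.58 (Mup12) to -1.48 (Mup20). The sum was 3.60-fold lower. Of the 10 calls, 7 were kept whichever library was left out.

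The 3 high-fat groups shared diet and DEN and differed in the generation of their mothers. In H2D against H1D 0 members were called lower (0.00865% of all genes) and 0 higher (0.138% of all genes) by limma, while 7 had an unadjusted p under 0.05. All 7 of those were higher in H2D. The sum was 1.73 times that of H1D, and 7 members were higher in both H2D pools, as were 21.9% of all genes. Mup21 alone was lower in both (21.4% of all genes). Mup7 differed most, by 1.85 ± 0.48 (adjusted p = 0.244). Without Nor pool 1 or without Nor pool 2, Mup1, Mup7 and Mup11 were called higher.

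In H3D against H1D 9 members fell and 0 rose, with 0.467% of all genes called lower and 0.138% higher. Their median was -3.38 (-0.01 over all genes), and the same 9 were lower in both pools (24.3% of all genes). Mup12 changed most, by -4.97 ± 0.52 (adjusted p = 0.0112). Mup20 was the exception, at -0.18 ± 0.19 (adjusted p = 0.813). Mup19 alone kept its call in every fit that left out 1 library, where it ran from -3.89 to -3.56. The number of all genes called also moved between those fits.

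In H3D against H2D 9 members fell and 0 rose, with 0.459% of all genes called lower and 0.0519% higher. Their median was -4.84 (-0.02 over all genes), and all 10 were lower in both pools (26.1% of all genes). Mup11 changed most, by -6.17 ± 0.55 (adjusted p = 0.00382), and Mup19 changed by -4.57 ± 0.33 (adjusted p = 0.00288). Mup20 differed by -0.71 ± 0.19 (adjusted p = 0.159). Leaving out H2D pool 1 or H3D pool 1 left 5 calls, and 4 of the 9 were kept whichever library was left out. The comparisons with NCD share its 2 pools, and those among high-fat groups share the high-fat pools, so they are not separate evidence.

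With these unequal changes the make-up of the sum shifted towards Mup20. Mup20 supplied 14.1% and 24.9% of the summed FPKM in Nor and 34.2% and 37.8% in NCD. Its share was 49.9% and 43.5% for H1D, 37.6% and 40.3% for H2D, and 77.8% and 78.7% for H3D. Mup7 went the other way, from 37.9% and 23.2% in Nor and 21.3% and 20.3% in NCD to 3.03% and 1.83% in H3D. Mup3 stayed between 15.1% and 29.7% in all pools. Mup20, Mup3 and Mup21 together made up 95.0% and 96.4% of the sum in H3D.

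**Figure D4:**
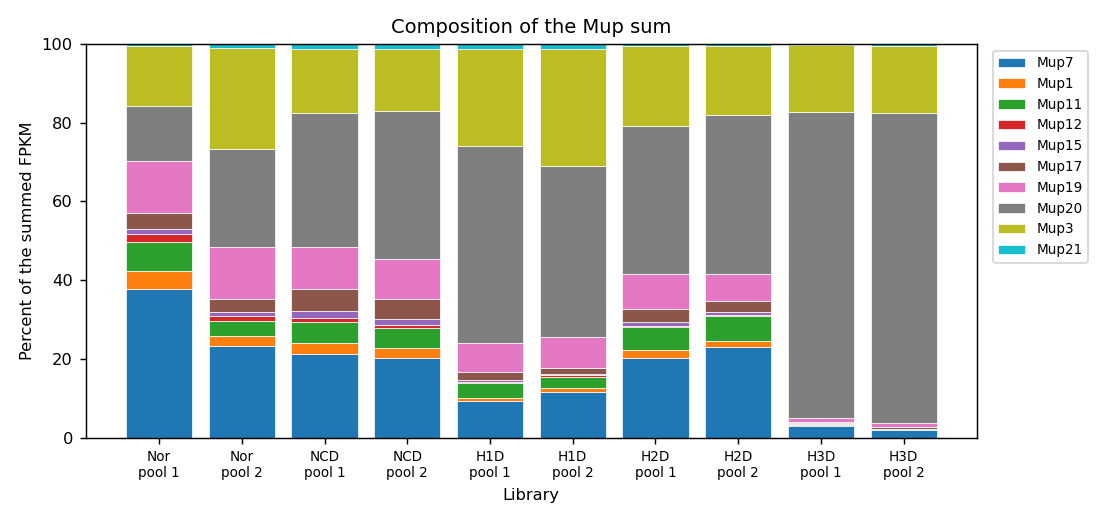
Share of each Mup gene in the summed FPKM of the 10 genes, in percent, for each of the 10 libraries. Mup20 rises to 77.8% and 78.7% in the H3D pools, where Mup7 is at 3.03% and 1.83%.

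The table lists 11 further Mup genes. Mup4 and Mup5, known for expression outside the liver, were listed at 0 in every pool, and Mup6 stayed below 1 FPKM. Mup10 and Mup14 were the most abundant of them. Mup10 gave 9160.3 and 6729 FPKM in Nor, 3897 and 4257 in NCD, 1016 and 1439 for H1D, 3221 and 2535 for H2D, and 252 and 376 for H3D. Mup14 gave 11530.0 and 6116 FPKM in Nor, 4190.0 and 4697 in NCD, 612 and 414 for H1D, 2398 and 2414 for H2D, and 63.6 and 84.0 for H3D.

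Of these 11 genes 8 were tested. Of all genes tested, 6% fell in NCD against Nor. Against NCD, 0.493% fell in H1D, 1.93% in H2D and 9.87% in H3D. By limma 1 of 8 fell in NCD against Nor (Mup10, -0.95 ± 0.26, adjusted p = 0.0463), 5 in H1D against NCD, 2 in H2D against NCD and 8 in H3D against NCD. Mup14 was also called higher in H2D than in H1D (2.26 ± 0.30, adjusted p = 0.0481), as were 0.138% of all genes. Added to the sum, the further genes gave 41639 ± 2388 FPKM in NCD and 4830.0 ± 1096 in H3D for all Mup genes.

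Other male-biased liver genes were counted beside the Mup genes. Of 29 tested, 6 fell and 2 rose in NCD against Nor (median -0.61), 9 fell and 0 rose in H1D against NCD (-1.38), 11 fell and 1 rose in H2D against NCD (-0.81), and 20 fell and 0 rose in H3D against NCD (-2.07). Hsd3b5, a steroid-reducing enzyme, was at 54.5 ± 9.65 FPKM in NCD and 0.0923 ± 0.0287 in H3D (-6.53 ± 0.34, adjusted p = 0.000117). Cyp4a12a, a fatty acid hydroxylase, went from 83.5 ± 25.1 to 0.555 ± 0.0443 FPKM (-6.28 ± 0.30, adjusted p = 0.000117).

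Cml5 and Nat8, a pair of acetyltransferase-family genes, changed by -4.87 ± 0.21 and -4.29 ± 0.21 in the same comparison. Cyp2d9, a testosterone hydroxylase, changed by -1.96 ± 0.18 in H2D against NCD (adjusted p = 0.00468). In H3D against H2D 8 of the 29 fell, and in H3D against H1D also 8, and 0 rose in either. The shares of all genes called lower were 0.459% and 0.467%.

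Of 33 female-biased genes tested, 11 rose and 0 fell in NCD against Nor (median 1.11), with Cyp2a4, a steroid hydroxylase, up by 10.15 ± 0.39 (adjusted p = 1.56e-05). Against NCD, 1 rose and 1 fell in H1D (median 0.60), 2 rose and 2 fell in H2D (-0.0047), and 4 rose and 5 fell in H3D (-0.06). In H3D against NCD, Cyp17a1, the steroid 17-hydroxylase, rose by 2.88 ± 0.27 (adjusted p = 0.000981), while Cyp2b10, a xenobiotic-inducible P450, changed by -3.07 ± 0.35 (adjusted p = 0.00203).

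Among 28 genes of growth hormone signalling and other Mup regulators, 0 were called in H1D against NCD by limma (5 at an unadjusted p under 0.05). Of all genes, 0.208% rose there and 0.493% fell. In H2D against NCD 1 rose and 1 fell, with 2.15% of all genes called higher and 1.93% lower. In H3D against NCD 1 rose and 6 fell (median -0.19), with 5.04% of all genes called higher and 9.87% lower. Ghr, the growth hormone receptor, was at 353 ± 16.1 FPKM in Nor, 218 ± 7.10 in NCD, 117 ± 27.0 in H1D, 150.3 ± 7.67 in H2D and 63.0 ± 14.8 in H3D. It fell in NCD against Nor (-0.70 ± 0.19, adjusted p = 0.0452), in H3D against NCD (-1.80 ± 0.19, adjusted p = 0.00135) and in H3D against H2D (-1.27 ± 0.19, adjusted p = 0.0394), and was not called in H1D against NCD (-0.91 ± 0.19, adjusted p = 0.0719) or H2D against NCD (-0.53 ± 0.19, adjusted p = 0.165).

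In H3D against NCD, Thrb, a thyroid hormone receptor, changed by -0.59 ± 0.11 (adjusted p = 0.0126), and Igfbp2, an IGF-binding protein, by -1.38 ± 0.31 (adjusted p = 0.0233). Stat3, which carries interleukin-6 signals, rose by 0.71 ± 0.10 (adjusted p = 0.00374). Stat5b, the growth hormone effector, was between 10.3 and 12.4 FPKM in all group means and was called in 0 of the 8 comparisons by limma, the lowest unadjusted p being 0.269.

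Lipocalins other than Mup genes moved both ways. Of 10 tested, 4 rose and 3 fell in H3D against NCD (median 0.29), with 5.04% of all genes called higher and 9.87% lower. Lcn2, which binds bacterial siderophores, was at 4.14 ± 0.126 FPKM in Nor, 239.8 ± 57.4 in NCD, 727 ± 25.4 in H1D, 1509.6 ± 415 in H2D and 2559 ± 125 in H3D. It rose in H3D against NCD by 3.43 ± 0.21 (adjusted p = 0.000151). Orm2, an acute-phase plasma protein, rose by 4.33 ± 0.57 (adjusted p = 0.00333). Rbp4, the retinol carrier, changed by -0.80 ± 0.13 (adjusted p = 0.00723), and Obp2a, an odorant-binding protein, by -2.43 ± 0.40 (adjusted p = 0.00714).

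Of 30 abundant plasma protein genes, 0 were called in H1D against NCD by limma (12 at an unadjusted p under 0.05). Of all genes, 0.208% rose there and 0.493% fell. In H2D against NCD 5 rose and 1 fell, with 2.15% of all genes called higher and 1.93% lower. In H3D against NCD 6 rose and 9 fell (median -0.11), with 5.04% of all genes called higher and 9.87% lower. Ttr, which carries thyroid hormone, changed by -1.26 ± 0.11 in the last (adjusted p = 0.000691). Fga and Fgb, fibrinogen chains, rose by 1.03 ± 0.14 and 0.90 ± 0.13.

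**Figure D5:**
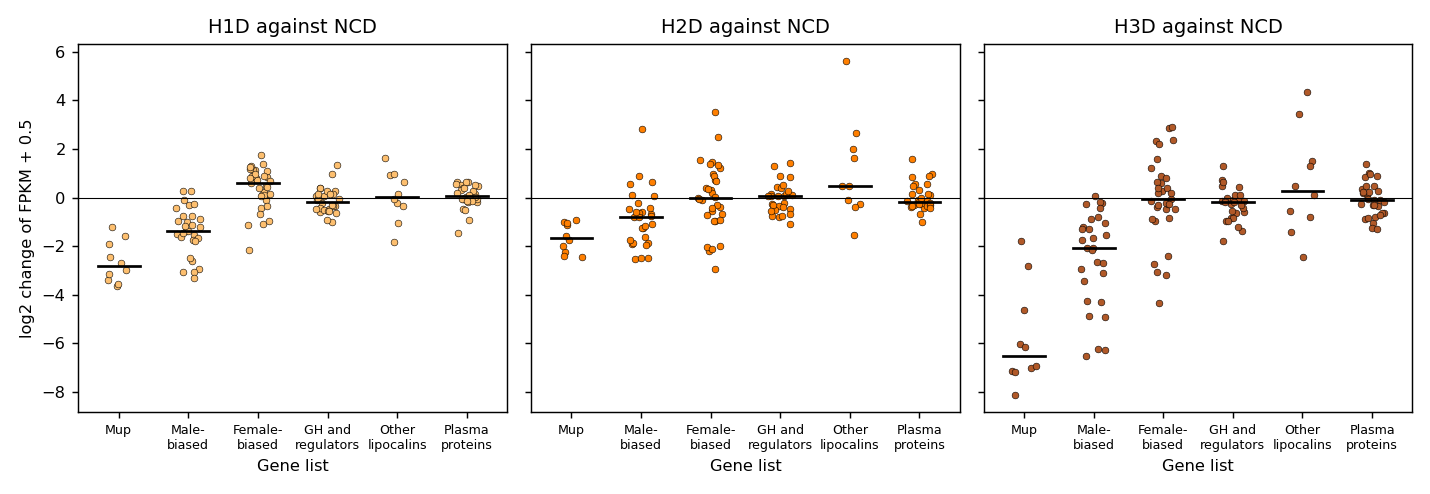
Log2 change of FPKM + 0.5 for each tested gene of 6 lists (Mup members, other male-biased, female-biased, growth hormone and regulators, other lipocalins, abundant plasma proteins) in H1D, H2D and H3D against NCD; points are genes and lines medians. The Mup medians are -2.83, -1.67 and -6.54, and those of the other male-biased genes -1.38, -0.81 and -2.07.

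Markers of other cells moved in the same comparisons, and their part in the Mup values was not tested. Beside the marker counts below, 9.87% of all genes fell and 5.04% rose in H3D against NCD. In NCD against Nor 7.93% of all genes rose, and in H2D against NCD 2.15%. Hepatocyte markers summed to 63086 to 67574 FPKM in NCD, 69459 to 89101 in H1D, 48681 to 57925 in H2D and 63618 to 78017 in H3D, and 3 of 10 fell in H3D against NCD (0 rose). Most of that sum was Alb, at 45010.2 ± 2193 FPKM in NCD and 52841 ± 8314 in H3D. Alb and Apoa1 had a higher mean in H3D than in NCD and the other 8 a lower one. Tumour and fetal markers, with 9 of 10 in the table, summed to 2.86 to 4.21 FPKM in Nor, 383 to 565 in NCD, 621 to 996 in H1D, 519 to 634 in H2D and 707 to 903 in H3D. In NCD against Nor 7 of 8 tested rose, and in H3D against NCD 2 rose and 1 fell. The largest part of the H3D sum was Spink1 (167 ± 103 FPKM in NCD and 426 ± 34.1 in H3D). Of the 9 markers, 5 had a higher mean in H3D than in NCD and 4 a lower one, among them Afp (32.2 ± 9.21 and 12.2 ± 6.73 FPKM).

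Neutrophil markers summed to 3.68 to 12.4 FPKM in Nor, 10.5 to 29.1 in NCD, 18.9 to 105 in H1D, 457 to 552 in H2D and 298 to 908 in H3D. All 7 tested rose in H2D and in H3D against NCD, and Ly6g was below 1 FPKM in all pools. Erythroid markers summed to 634 to 758 FPKM in NCD and 1368 to 3982 in H3D, and 4 of 7 rose. Macrophage markers summed to 158 to 188 and 214 to 309.5 FPKM in those groups, and 2 of 8 rose.

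Biliary markers summed to 323 to 368 FPKM in NCD and 381 to 531 in H3D. Most of that sum was Spp1 (230 ± 36.7 and 385 ± 88.8 FPKM), and 5 of the 8 had a lower mean in H3D, among them Tspan8 (104 ± 2.48 and 62.1 ± 16.4 FPKM), with Cftr and Krt7 below 1 FPKM in all pools, and 1 of 4 tested fell in H3D against NCD. Stellate markers (46.2 to 48.1 and 41.7 to 44.3 FPKM) and endothelial markers (112 to 121 and 109 to 120.0 FPKM) lay close together in these groups. Lymphocyte markers summed to 21.7 to 26.6 and 16.8 to 33.1 FPKM, with Cd3d and Ms4a1 below 1 FPKM in all pools. Of the 7 endothelial markers 1 rose. By limma 0 of 8 stellate and 0 of 4 lymphocyte markers were called, with 2 and 0 at an unadjusted p under 0.05.

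Over the 10 libraries, the genes outside the family whose log2 values followed the Mup sum most closely were Gm3839, Bdh2, Nudt7, Susd4, Ttc39c, Cyp2u1, Ccdc101 and Hsd3b5, with Pearson's r from 0.980 to 0.969. The lowest r were those of Gskip, Sema6b, E330009J07Rik and Map3k6 (-0.959 to -0.977). These are descriptions over 10 libraries that share the same 5 groups. Nudt7, a peroxisomal coenzyme A hydrolase, was at 497 ± 221 FPKM in Nor, 275 ± 42.1 in NCD, 83.6 ± 31.7 in H1D, 181 ± 34.2 in H2D and 44.5 ± 16.0 in H3D. The members' own r with the sum ran from 0.908 (Mup21) to 0.972 (Mup1).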

How the data were processed

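Long RNA of 2 pools per group was sequenced as paired reads of 125 nt after removal of ribosomal RNA, per the labels' protocols. The submitters' processing notes name the aligners TopHat2 2.0.9 and Bowtie2 2.0.6, the quantifiers Cuffdiff 2.1.1 and Cufflinks 2.1.1, the utilities SAMtools 0.1.18, GATK and Picard 1.96, and the build GRCm38, without saying how each was used. The authors deposited FPKM per transcript for 50660 mRNA transcripts of 21949 genes. How reads matching several Mup copies were divided is not given in the sources used here, so single-gene values are uncertain and the sum is safer. The other deposited tables hold no Mup gene and were not used here.

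FPKM was summed by gene identifier. limma 3.58.1 in R 4.3.3, with a trend of the variance, was fitted to log2(FPKM + 0.5) of the 11557 genes with at least 1 FPKM in 2 libraries. Each group had 1 coefficient, no block was used, and 5 degrees of freedom remained for the spread. The 8 comparisons were tested two-sided, with Benjamini-Hochberg adjustment over all genes tested. The script was tested on simulated data. Sums of members were compared as ratios of group means. Promoters were aligned with Biopython 1.88 and plots drawn with matplotlib 3.10.9 in Python 3.11.15.

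The members and lists were chosen with earlier results of these data known. Genes were named from a list where called, up to 4 of the smallest p per comparison, with the 8 genes most alike to the sum and the 4 least alike. Ghr and Stat5b are given in every comparison or group because they carry the growth hormone signal. Values of some list members are not reported here. Alternatives were pseudocounts of 0.1 and 1, no filter, a mean of at least 5 FPKM, equal FPKM sums (for the sum also without mitochondrially encoded genes), quantile normalization, only the groups compared, a replicate block, leaving out each library, and a sum over every Mup gene. Sums over the first 7 genes and over Mup3, Mup20 and Mup21 were added after seeing the data.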

Additional observations from a re-analysis of the deposited data

How the results depend on the processing

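H1D, H2D and H3D against NCD, and their mean, kept their sign for every member in all settings run. The sum over Mup3, Mup20 and Mup21 and the sum over the other 7 members, split after the values were seen, gave log2 ratios of -1.47 and -2.88 (H1D against NCD), -2.03 and -6.35 (H3D against NCD), -1.46 and -2.47 (mean of the high-fat groups), 0.42 and 1.53 (H2D against H1D), -0.56 and -3.47 (H3D against H1D) and -0.99 and -5.00 (H3D against H2D). In H2D against NCD the 7 gave -1.35, and over every Mup gene H2D against H1D gave 0.97. With no filter 21949 genes were tested. By limma 0 members were then called in H1D against NCD, 0 in H2D against NCD, 0 in H3D against H1D and 1 in H3D against H2D. At an unadjusted p under 0.05 there were 10, 7, 9 and 9. Over all genes 42, 123, 28 and 34 were called, against 81, 471, 70 and 59 of 11557 in the main fit. With only the groups compared, 10 were called in H2D against NCD (795 of all 11557 genes). With equal FPKM sums, 1 was called in NCD against Nor (1766 of all 11640 genes). That scaling moved the median of all genes to 0.16 (NCD against Nor), 0.11, 0.10 and 0.20 (H1D, H2D and H3D against NCD). Such a move follows from the scaling itself, because the FPKM sums of the libraries ran from 568823 to 784456. Why these sums differ was not tested.

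Leaving out 1 library at a time gave log2 ratios of the sum from -1.01 to 0.09 (NCD against Nor), -2.04 to -1.89 (H1D against NCD), -1.27 to -1.09 (H2D against NCD), -3.12 to -2.67 (H3D against NCD), -1.90 to -1.79 (mean of the high-fat groups), 0.69 to 0.88 (H2D against H1D), -1.16 to -0.70 (H3D against H1D) and -1.95 to -1.49 (H3D against H2D). Calls ran from 0 to 5, 0 to 9, 0 to 9, 10 to 10, 7 to 10, 0 to 3, 1 to 9 and 5 to 9 in the same order. A group then held 1 pool, assumed to vary like the other groups. The number of all genes called also moved between these fits, so the counts do not describe the Mup genes alone.

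Signs changed for 5 genes that were not called. Over the fits without 1 library, NCD against Nor ran from -1.80 to 0.056 for Mup1, -1.52 to 0.60 for Mup11, -0.84 to 0.65 for Mup15 and -0.53 to 0.83 for Mup17, with the ends set by the Nor pools. Mup15 was also at 0.13 with equal FPKM sums and 0.16 with quantile normalization. Mup20 in H3D against H1D ran from -0.42 to 0.060, with the ends set by the H3D pools.

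No label says that a replicate number marks a shared litter, batch or day, so the samples were not treated as paired. Correlations of same-numbered deviations ran from -0.05 to 0.23, and 4 of 10 were over 0.1. With a replicate block, members called were 0, 6, 4, 10, 10, 0, 8 and 9 in the same order. Over all 11557 genes 1541, 82, 496, 1774, 1438, 8, 75 and 52 were called. Read depth is unknown, so what depth limits cannot be set.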
